A study of Mus musculus with 8 samples.

Results

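The 10 genes described here encode enzymes of glutathione synthesis, thioredoxin and quinone reduction, peroxide and superoxide removal, and glutathione conjugation, most of them known targets of the transcription factor NRF2. They were chosen by name (Gclc, Gclm, Nqo1, Txnrd1, Srxn1, Gpx1, Gpx4, Prdx1, Sod1 and Gstp1) and are 10 of the 17143 genes in a table of unique molecular identifier (UMI) counts from hippocampal cells. The cells came from 8 mice aged 5 months. The Pb group held 4 mice (2 females and 2 males) whose mothers drank water with 32 ppm Pb-acetate from 2 weeks before mating, through pregnancy and nursing. The 4 control mice, again 2 of each sex, had unexposed mothers. All 8 were wildtype a/a animals and drank Pb-free water after weaning, so the exposure had ended months before the measurement. A litter gave 1 male and 1 female, and the labels do not tie mice to litters. A Pb female and a Pb male may thus be littermates, in which case the tests treat related mice as independent. After saline perfusion the tissue was dissociated with enzymes in a heated instrument, and cells were frozen, thawed and captured on a 10x Chromium. In mouse names, F and M stand for female and male (Pb F1).

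As background, NRF2 (gene Nfe2l2) is held in the cytoplasm and sent for degradation by KEAP1, and oxidants or electrophiles release it to enter the nucleus, where it pairs with a small MAF protein on the antioxidant response element of its target genes. Glutathione, made from glutamate, cysteine and glycine, feeds the peroxidases and transferases, while the thioredoxin system feeds the peroxiredoxins. In brain tissue, astrocytes are known for high NRF2 activity and for supplying glutathione precursors to neurons, and oligodendrocytes for a high iron content.

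Of 5258 cells in the table, 5175 were kept (211 to 1157 per mouse, 1749079 to 8508064 UMIs per mouse). Pb mice gave 3555 of them and control mice 1620. Clusters were named by fixed marker genes, and every marker was highest in its own class in 7 of the 9 named classes used here. The exceptions were Pericyte-like (8 of 9 markers) and Neuron-like (6 of 8, led by Snhg11, Reln and Nhlh2). A cluster led by hemoglobin genes, which scored highest for the microglial marker set but held 0 microglial markers among its 10 leading genes, is called cluster 1. A set of 32 cell barcodes occurred in more than 1 library, in 91 kept cells. Of these barcodes, 9 were in 3 or more libraries (45 cells), 1 of them in all 8. They lay mostly in Endothelial-like (34), Smooth muscle-like (18) and Oligodendrocyte-like (13) cells. In the tests below no member was called with or without these cells. Without them, gene calls went from 4 to 1 for the Pb by sex interaction and from 34 to 24 for sex, over 34186 in place of 39362 tests. For Pb against control, 1 of 46 member tests then had an unadjusted p under 0.05 in edgeR, in place of 0 of 55. Leaving these cells out moved the 50 differences between clusters by a median of 0.00896 and at most 0.074 on the log2 scale. In control M2, 71 of the 92 Oligodendrocyte-like cells formed a cluster of their own (cluster 21), and this mouse also held 46 of the 95 Choroid plexus-like cells.

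Promoter stretches of 4 members are printed because they carry the core of the antioxidant response element, here TGACNNNGC on either strand, upstream of the start of transcription. They are 60 bases each from the RefSeq promoter table (GRCm38.p6), on the plus strand, with the matched letters in capitals. On the printed strand the match reads as its reverse complement.
Gclm, chr3:122245397-122245456: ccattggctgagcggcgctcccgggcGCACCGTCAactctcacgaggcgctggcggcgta
Prdx1, chr4:116685440-116685499: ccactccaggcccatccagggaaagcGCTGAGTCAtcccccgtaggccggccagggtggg
Txnrd1, chr10:82859088-82859147: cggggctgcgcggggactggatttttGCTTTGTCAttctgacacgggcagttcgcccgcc
Sod1, chr16:90220680-90220739: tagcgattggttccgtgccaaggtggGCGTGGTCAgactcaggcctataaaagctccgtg
The match began 134 bases before the start in Gclm, 133 in Prdx1, 92 in Txnrd1 and 56 in Sod1. The Prdx1 match also holds TGAGTCA, the letters of an AP-1 type site. Promoters in this table span 250 bases before and 50 after the start, and 9 of the 10 members had at least 1 (14 promoters, none for Gclc). The motif stood in a listed promoter of 5 members, the fifth being Srxn1, where it lay 28 bases after the start. Only these letters were searched. The promoters of Gstp1 and Srxn1 hold TGAGTCAGC before the start, which differs from the motif in 1 letter and was not counted. Counted by promoter, the motif stood in 1 promoter of each of these 5 members, of the 14 listed for the members. Over all genes it stood in 4071 of 32851 promoters, or 12.4%. A match of these letters describes the window and does not show binding.

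Levels are CPM, a gene's UMIs scaled to a common total of UMIs per class and mouse, averaged over the mice with at least 10 cells of that class, with no test. They are compared between classes for 1 gene at a time. The comparison covered 10 units, which were 9 named classes and cluster 1. The members and 67 other genes of these pathways were left out of the genes used for clustering.

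**Figure D1:**
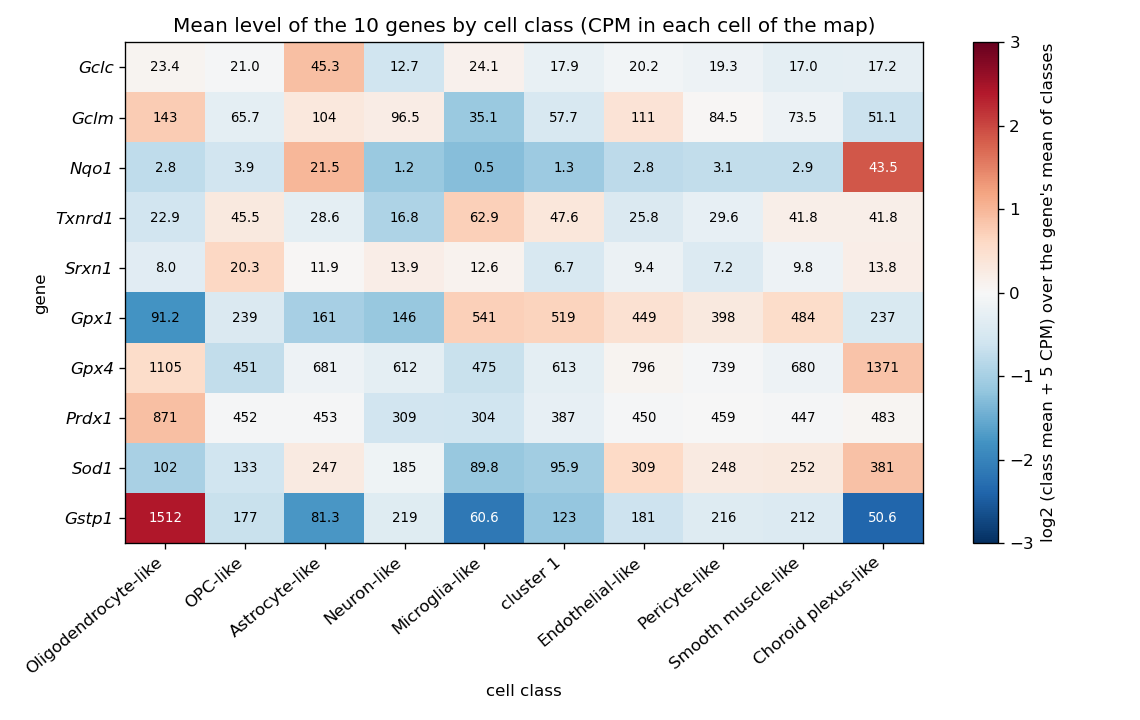
Mean CPM of each of the 10 genes (rows) in each class (columns), printed in the map, with color for the log2 ratio to the gene's own mean over classes. Gstp1, Prdx1 and Gclm are highest in Oligodendrocyte-like cells, Gpx1 and Txnrd1 in Microglia-like cells, and Gclc in Astrocyte-like cells.

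Glutathione synthesis starts with glutamate-cysteine ligase, made of a catalytic subunit (Gclc, chromosome 9, 77754535 to 77794485) and a modifier subunit (Gclm, chromosome 3, 122245557 to 122270732; all gene positions are GENCODE on GRCm38). The transcripts of the subunits were highest in different cells. Gclc was highest in Astrocyte-like cells, at 45.3 ± 9.63 CPM (SD, n = 6 mice), 1.88-fold over the next class. The 6 astrocyte values ran from 37.5 to 61.8 with a median of 40.7, and each lay above all 8 microglial values (12.9 to 29.9), though the highest Pericyte-like value (40.4) fell among them. The other 9 units ran from 24.1 ± 6.23 in Microglia-like to 12.7 ± 8.43 in Neuron-like cells, and no neighbours in that order were apart. The astrocyte value rests on 38 UMIs in all. Ependymal-like cells, with 1 mouse of at least 10 cells, gave 200.1 CPM from 15 UMIs.

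Gclm was highest in Oligodendrocyte-like cells, at 143 ± 16.6 CPM (n = 8). These values ran from 124 to 167 with a median of 142, above all 8 endothelial values (103 to 119, mean 111 ± 5.71). Astrocyte-like (104 ± 33.8) and Neuron-like cells (96.5 ± 25.04) varied more, and their highest values (145 and 125) overlapped those of oligodendrocytes. Microglia-like cells were lowest at 35.1 ± 11.9, or 4.07-fold below oligodendrocytes. On the genome, Gclm overlaps Gm17494 on the other strand and the pseudogene Gm6061, and no source used here states whether the authors' counting used strand.

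Of the reductases, Nqo1 (chromosome 8, 107388225 to 107403206), which reduces quinones with a pair of electrons at a time, was close to 0 in most cells. It reached 43.5 ± 7.52 CPM in Choroid plexus-like cells (n = 3; 35.3, 45.1 and 50.03 in Pb F1, control F2 and control M2). Astrocyte-like cells gave 21.5 ± 15.1 (0 to 40.3, n = 6), overlapping the choroid values. All other units had means of at most 3.94, and Microglia-like cells gave 0.493 ± 0.572, with 4 UMIs over 8 mice and 4 mice at 0. Outside the ordered units, Fibroblast-like cells of Pb F1 and Pb M1 gave 80.8 and 7.65. A small astrocyte cluster (cluster 8) gave 99.6 in Pb M1, from 9 UMIs.

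Txnrd1 (chromosome 10, 82833951 to 82897712), the cytosolic thioredoxin reductase, was highest in Microglia-like cells at 62.9 ± 15.9 CPM (40.2 to 89.6, n = 8). The order ended with Neuron-like cells at 16.8 ± 14.9, and no neighbours in it were apart. Perivascular macrophage-like cells, in which only Pb F1 and Pb M1 had 10 cells, gave 99.9 and 87.8. Txnrd1 overlaps Eid3 on the same strand and Gm38560 and Gm47073 on the other. Srxn1 (chromosome 2, 152105516 to 152111376) encodes sulfiredoxin, which restores over-oxidised peroxiredoxins. Its class means ran from 20.3 ± 3.61 in Oligodendrocyte precursor-like cells to 6.65 ± 8.98 in cluster 1, again with every neighbour overlapping.

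Among the peroxide enzymes, Gpx1 and Gpx4 were highest in different cells. Gpx1 (chromosome 9, 108338903 to 108340343), the main cytosolic glutathione peroxidase, was 541 ± 83.4 CPM in Microglia-like cells (n = 8). Cluster 1 (519 ± 90.1), Smooth muscle-like (484 ± 71.0) and Endothelial-like cells (449 ± 65.9) overlapped it. It was lowest in Oligodendrocyte-like cells at 91.2 ± 22.7, or 5.93-fold below microglia, and the 8 oligodendrocyte values (64.3 to 133) lay under all 8 microglial values (409.8 to 651). Neuron-like (73.0 to 198) and Astrocyte-like values (94.1 to 247) overlapped those of oligodendrocytes. Gpx4 (chromosome 10, 80047166 to 80056439), which reduces lipid peroxides in membranes, was highest in Choroid plexus-like cells at 1371 ± 96.2 CPM (1260.2 to 1436, n = 3). Oligodendrocyte-like cells followed at 1105 ± 67.0 (1012 to 1209, n = 8), above every endothelial value (682 to 915) and below every choroid value. Microglia-like (475 ± 34.7) and Oligodendrocyte precursor-like cells (451 ± 46.9) were lowest, and the Neuron-like values next above (612 ± 67.0) stood apart from the microglial ones. The pseudogene Gpx4-ps2 may take some Gpx4 reads.

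Prdx1 (chromosome 4, 116685544 to 116700822), a thioredoxin-dependent peroxidase, was 871 ± 89.3 CPM in Oligodendrocyte-like cells (n = 8), 1.802-fold over the next class. Those values ran from 704 to 989.8 with a median of 877, and the 3 choroid values ran from 410.5 to 534. The lowest class was Microglia-like at 304 ± 36.6. Sod1 (chromosome 16, 90220754 to 90226329), the cytosolic copper-zinc superoxide dismutase, was highest in Choroid plexus-like cells at 381 ± 75.5 CPM and next in Endothelial-like cells at 309 ± 40.1, which overlapped. Oligodendrocyte-like cells (102 ± 9.55), cluster 1 (95.9 ± 32.2) and Microglia-like cells (89.8 ± 17.4) closed the order. Oligodendrocytes, high for Gpx4 and Prdx1, were thus near the low end for Sod1 and lowest for Gpx1. The single mouse with enough Ependymal-like cells gave 640.2 CPM of Sod1, from 48 UMIs. Sod1 overlaps Scaf4 on the other strand.

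Gstp1 (chromosome 19, 4035407 to 4037985), the pi-class glutathione transferase, was carried mostly by oligodendrocytes. Oligodendrocyte-like cells held 1512 ± 193 CPM (n = 8), 6.92-fold over Neuron-like cells (219 ± 65.1). In the Pb mice F1, F2, M1 and M2 the oligodendrocyte level was 1549.9, 1556, 1545 and 1337 CPM, and in control mice 1878, 1256, 1599 and 1378. The groups overlapped, and each value lay far above the highest neuron value (316). Choroid plexus-like cells were lowest at 50.6 ± 11.3, or 29.9-fold below oligodendrocytes, with Microglia-like cells at 60.6 ± 6.89. Gstp2 is a near-identical neighbour, so the split of reads between the pair is uncertain.

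The level of oligodendrocyte genes, which free RNA can raise in other classes, was measured beside this. The summed level of 7 oligodendrocyte genes (Mbp, Mobp, Mog, Mag, Cnp, Cldn11 and Ermn), all of them detected in each unit, was 32090 CPM in Oligodendrocyte-like cells, 3006 to 4965 CPM in the other named classes and 9539 in cluster 1. Per 100 UMIs of these genes, Oligodendrocyte-like cells held 4.67 Gstp1 UMIs (3.82 to 5.25 per mouse). Microglia-like (1.43), Choroid plexus-like (1.61), Astrocyte-like (1.73) cells and cluster 1 (1.39) held fewer. Per mouse the ratio reached 2.39 in Microglia-like and 1.83 in Choroid plexus-like cells, below every oligodendrocyte value. Whether free RNA gave the Gstp1 of these 2 classes was not tested. In Astrocyte-like cells (0.513 to 4.85) and cluster 1 (0.635 to 5.29) it overlapped the oligodendrocyte values. Endothelial-like (4.68), Oligodendrocyte precursor-like (4.92) and Neuron-like cells (4.94) lay within the range of the oligodendrocyte values. Per mouse, the Endothelial-like (2.43 to 7.69) and Oligodendrocyte precursor-like ratios (2.49 to 6.69) lay above the highest Microglia-like ratio, and the Neuron-like ratios (1.89 to 10.2) overlapped it. Endothelial-like cells held 181 CPM of Gstp1 beside a sum of 4419 CPM, against 60.6 beside 4965 in Microglia-like cells. The part of free RNA in these levels was not tested. Pericyte-like (5.55) and Smooth muscle-like cells (5.87) held more, but their values per mouse (3.41 to 8.71 and 3.45 to 9.53) overlapped those of oligodendrocytes.

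**Figure D2:**
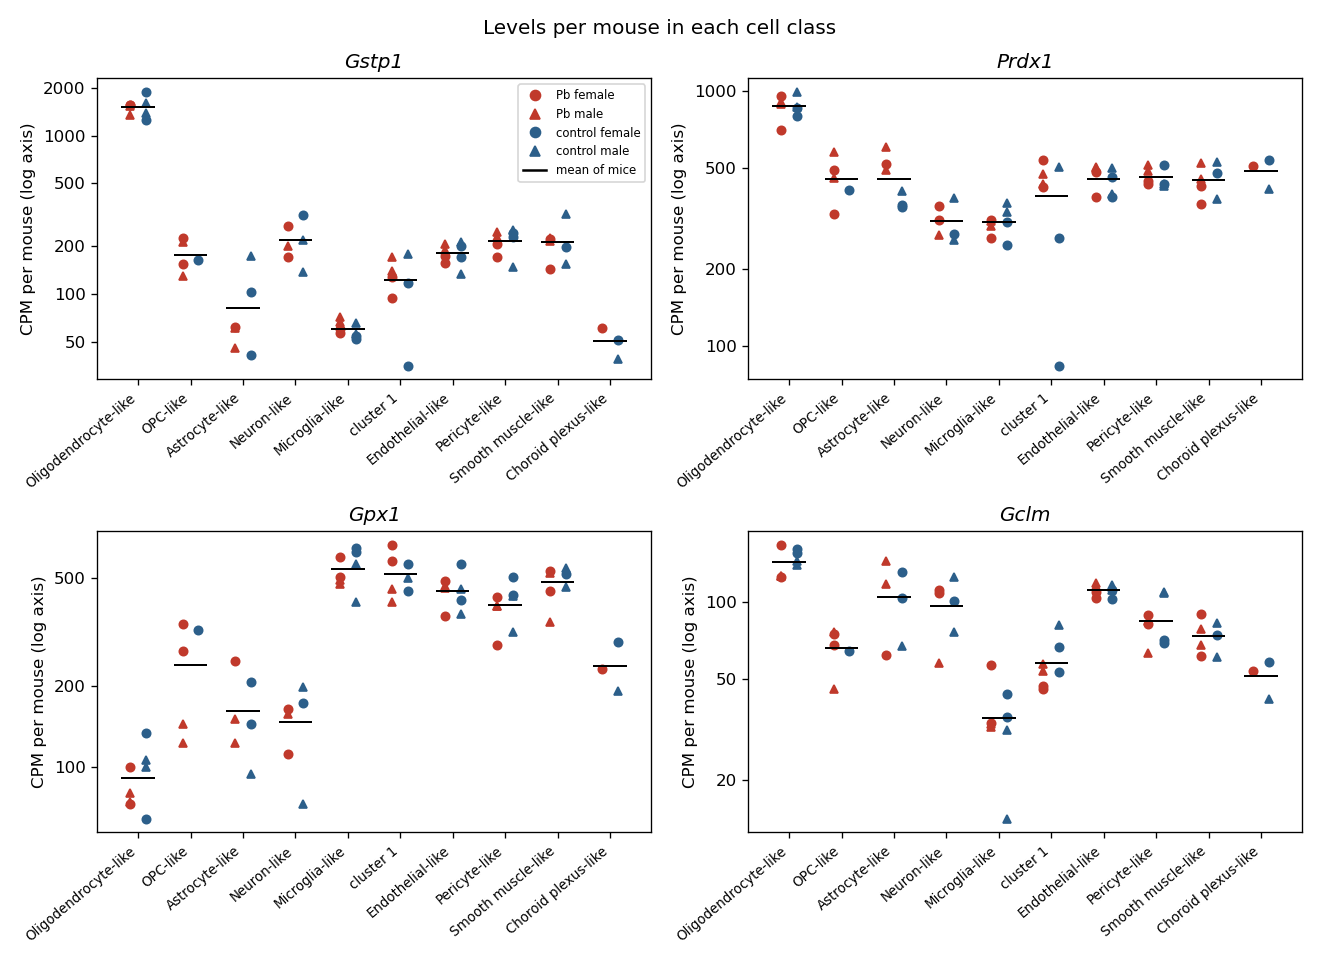
CPM per mouse (log axis) of Gstp1, Prdx1, Gpx1 and Gclm in each class, with Pb and control mice in different colors, females and males with different symbols, and a line at the mean. Every oligodendrocyte value of Gstp1 and Prdx1 lies above those of all other classes, and the Gclm values overlap with Astrocyte-like and Neuron-like cells. In the classes compared between Pb and control mice, the points of the groups intermix except for Prdx1 in Astrocyte-like cells.

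Microglia-like cells fell into 3 clusters, and the members differed between them within the same mice. Cluster 5 was led by Bcl2a1d, Il1a, Nlrp3 and Tnf, genes of inflammatory activation. Cluster 6 was led by Hmox1, Rgs2 and Rgs1, with Cx3cr1 also among its 10 leading genes. Cluster 19 was led by P2ry13, Cx3cr1 and P2ry12, genes of resting microglia. Differences between clusters are means over mice of the log2 difference of CPM + 5, given as description. Txnrd1 was 76.0, 113, 102 and 127 CPM in cluster 5 of Pb F1, F2, M1 and M2, and 105, 78.2, 62.2 and 102 in control F1, F2, M1 and M2. In cluster 6 the same mice gave 38.5, 17.9, 35.7 and 30.2, and 17.0, 14.1, 32.0 and 29.8. The cluster 5 level was higher in 8 of 8 mice, with a 3.56-fold ratio of the means (95.7 ± 21.6 against 26.9 ± 9.25) and a log2 difference of 1.69 ± 0.60 (SD over mice).

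Srxn1 followed the same order, at 22.7 ± 7.07 CPM in cluster 5 and 3.27 ± 3.42 in cluster 6 (log2 difference 1.81 ± 0.54, 8 of 8 mice). Against cluster 19, which had 10 cells in 7 mice, both genes were higher in cluster 5 in 7 of 7 mice, Txnrd1 by 1.61 and Srxn1 by 2.06 on the log2 scale. Cluster 19 held only 2 Srxn1 UMIs. Gpx1 graded over the clusters, from 663 ± 79.6 CPM in cluster 5 through 452 ± 67.5 in cluster 6 to 307 ± 73.4 in cluster 19. Its step from 5 to 6 was 0.55 ± 0.16 on the log2 scale (8 of 8 mice) and from 6 to 19 it was 0.56 (7 of 7).

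Gclc set cluster 19 apart more than cluster 6. It was higher in cluster 5 than in 6 in 5 of 8 mice (28.5 and 22.9 CPM) and than in 19 in 7 of 7 (11.1 CPM in cluster 19, difference 1.37). Gclm averaged 37.5 and 37.8 CPM in clusters 5 and 6. Gpx4, Prdx1 and Sod1 were higher in cluster 5 than in 6 in 6 of 8 mice each, and Gstp1 in 3 of 8. No Nqo1 UMI was found in clusters 5 and 19. In cluster 5 a count of 0 allows up to 3.21 CPM in the deepest and 16.1 CPM in the shallowest mouse, for counting error only. Slc7a11, the cystine importer and an NRF2 target outside the 10, was 67.6 ± 43.4 CPM in cluster 5 and 10.8 ± 4.67 in cluster 6 (log2 difference 2.005, 8 of 8 mice). Hmox1, the heme oxygenase and another known target, ran the other way, with 315 ± 119 against 823 ± 329 CPM (lower in cluster 5 in 8 of 8). Hmox1 is also 1 of the genes that lead cluster 6. Nfe2l2 itself was 285 CPM in cluster 5, 262 in cluster 6 and 180 in cluster 19.

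Markers of heat and dissociation also differed between these clusters. The summed level of 12 heat shock genes was 11141 CPM in cluster 5, 22942 in cluster 6 and 13122 in cluster 19. For 8 immediate early genes linked to dissociation it was 14487, 25264 and 8599. Their part in the differences between clusters was not tested. Cluster 5 made up 44.6, 70.5, 52.5 and 29.7% of the microglia of Pb mice and 60.8, 61.2, 39.0 and 23.8% of those of control mice, so a class total of Txnrd1, Srxn1 or Gpx1 mixes these clusters in different parts in each mouse.

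**Figure D3:**
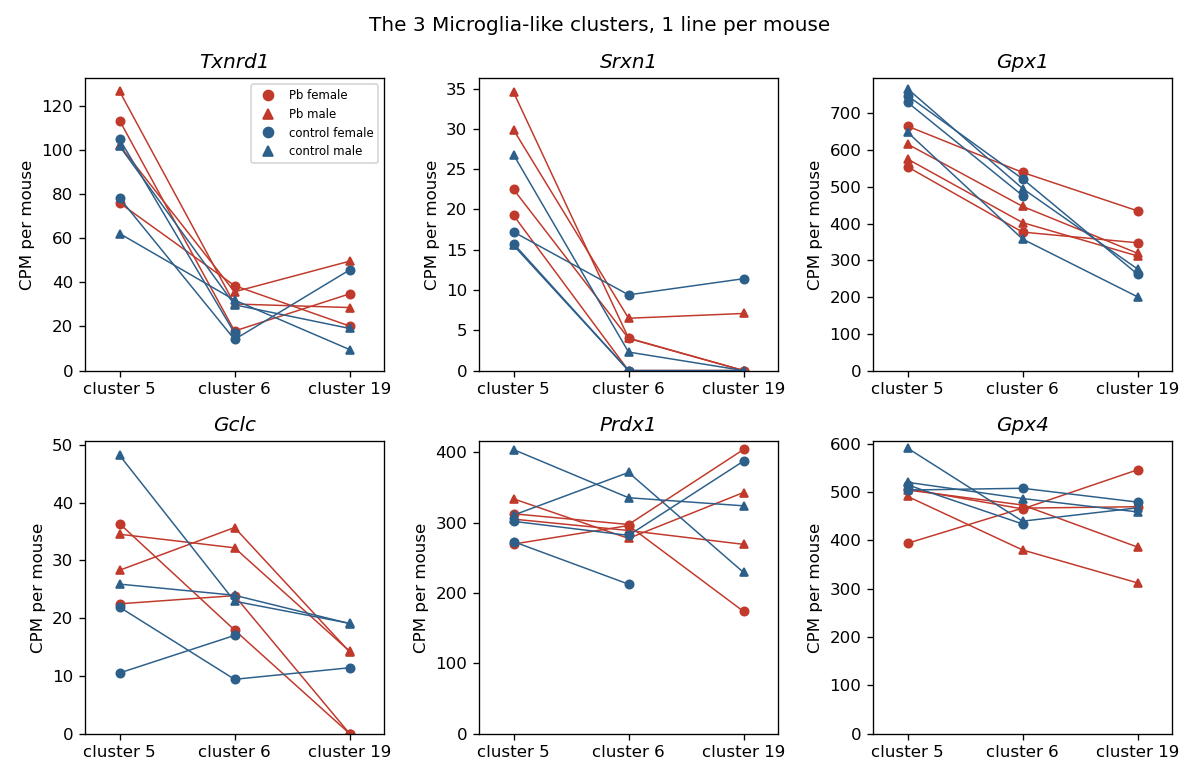
CPM of Txnrd1, Srxn1, Gpx1, Gclc, Prdx1 and Gpx4 in microglial clusters 5, 6 and 19, with 1 line per mouse. The Txnrd1 and Srxn1 lines drop from cluster 5 to 6 in all 8 mice and the Gpx1 lines drop at each step, while the Prdx1 and Gpx4 lines cross.

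Oligodendrocyte-like cells split into clusters 2 and 3, with 7 mice in both. Gstp1 was 1859 ± 196 CPM in cluster 2 and 1084 ± 179 in cluster 3, higher in cluster 2 in 7 of 7 mice (log2 difference 0.78 ± 0.15), and it is 1 of the 10 leading genes of cluster 2. Gclm was also higher there in 7 of 7, and Prdx1 was lower in 6 of 7 (808 ± 130.0 against 967 CPM). The control M2 cells of cluster 21 gave 1575 CPM of Gstp1 and those of cluster 3 gave 591. The summed 7 oligodendrocyte genes were near equal in clusters 2 and 3, at 32842 and 32091 CPM.

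Endothelial-like cells fell into clusters 0 and 11. Gpx1 was 496 ± 63.9 CPM in cluster 11 and 413 ± 67.0 in cluster 0, higher in 8 of 8 mice, or 7 of 8 without the cells that share a barcode. Srxn1 was 14.5 ± 6.14 against 5.94 ± 3.42, higher in 7 of 8. The Pericyte-like class joined cluster 4, whose second best marker set was endothelial and whose median UMI count was 1.76 times that of its samples, with cluster 18. In the 4 mice with both, Gclm (87.2 and 23.4 CPM), Gpx1 (451 and 233) and Gpx4 (775 and 611) were higher in cluster 4 in 4 of 4. Txnrd1 (25.6 and 56.7), Prdx1 (439 and 599) and Gstp1 (215 and 290.2) were lower there in 4 of 4. The pericyte means of the class order therefore describe a mixture, and at other settings of the clustering they were close to the values of cluster 18.

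Pb and control mice were compared in 7 named classes and cluster 1, and in the sum of all kept cells, with edgeR's quasi-likelihood test and sex as a covariate. A gene was called at a Benjamini-Hochberg adjusted p of at most 0.05 over all genes of the unit. No member was called in any class. In the 8 classes 39362 gene tests gave 0 calls (background 0%), so the members' count of 0 of 55 equals the background. At an unadjusted p under 0.05 stood 0 of 55 member tests, against 1732 of 39362 (4.40%) of all genes. DESeq2 and limma-voom also called no member. DESeq2 had an unadjusted p under 0.05 in 0 of 55 member tests and in 761 of all 39362, with 13 genes called. For limma-voom these counts were 1 of 55 (Prdx1 in astrocytes) and 1824 of 39362, with 0 called.

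The 55 log2 fold changes ran from −0.37 to 0.62 with a median of −0.018, and 26 lay above 0. Their standard errors ran from 0.097 to 0.486 with a median of 0.21, so a shift of the size of most point estimates was not detectable at this depth and number of mice. Gpx4 in Oligodendrocyte-like cells had the tightest estimate, at −0.050 with a 95% interval from −0.26 to 0.16. Nqo1 passed the count filter in no class and Srxn1 only in Microglia-like cells. From 5 to 9 members were tested per class. The median over the tested members was 0.19 in Microglia-like cells against 0.0010 over all genes there, 0.045 against −0.0055 in Endothelial-like, −0.046 against −0.011 in Oligodendrocyte-like, and −0.063 against −0.0049 in Astrocyte-like cells. Leaving out control M1 brought the microglial median to 0.078 and leaving out control M2 brought it to 0.35. The astrocyte median became 0.28 without control M2 and 0.35 without control F2, and the endothelial median −0.0034 without Pb F2 and −0.0091 without Pb M2.

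**Figure D4:**
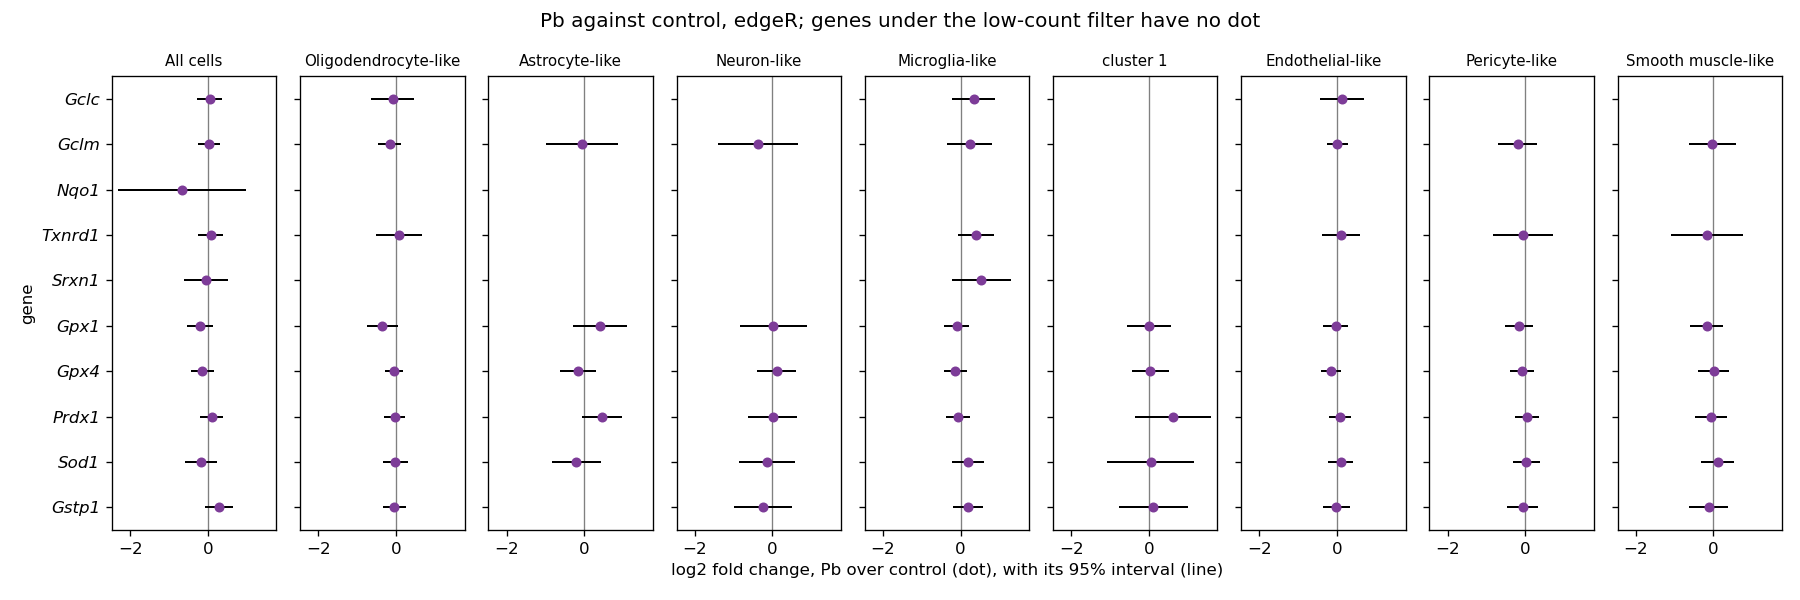
Log2 fold change of Pb over control (dot) with its 95% interval (line) for each tested gene in each unit, from edgeR. Every interval crosses 0, and those of Prdx1 in Astrocyte-like, Gpx1 in Oligodendrocyte-like and Gstp1 in all cells reach least far past it. No gene reaches an adjusted p of 0.05.

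The 8 class differences with the smallest unadjusted p are given as values, ordered by role. In glutathione synthesis this was Gclc in Microglia-like cells. The Pb mice held 21.8, 29.9, 28.6 and 29.4 CPM and the control mice 12.9, 18.1, 23.6 and 28.9 (log2 fold change 0.34, SE 0.25, adjusted p = 1.00). The groups overlapped, with control M1 and M2 above Pb F1.

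Of the reductases, Txnrd1 in Microglia-like cells was 57.1, 89.6, 76.5 and 61.7 CPM in Pb mice, against 70.8, 60.7, 40.2 and 46.8 in control mice (0.40, SE 0.21, adjusted p = 1.00). The control males were lowest and control F1 lay above Pb F1 and M2. Srxn1 in the same cells was 13.4, 14.1, 20.3 and 13.3 against 9.66, 14.9, 7.09 and 8.25 CPM (0.53, SE 0.35, adjusted p = 1.00). Here control F2 lay above 3 of the 4 Pb mice, and the class held 95 Srxn1 UMIs in all. The summed heat shock genes ran from 12360.3 to 24184 CPM in the microglia of Pb mice and from 10269 to 13639 in those of control mice. Their part was not tested.

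Prdx1 in Astrocyte-like cells was the 1 member test of 55 in which the groups did not overlap. In the 3 Pb mice with enough cells (F1, M1, M2) it was 515, 603 and 489.7 CPM, and in the 3 control mice (F1, F2, M2) 350.3, 356 and 403 (log2 fold change 0.46, SE 0.23, adjusted p = 0.837). In these cells 7.18% of all 2285 genes tested had every Pb mouse above every control mouse, and 2.23% did over the 8 classes (1.65% had every Pb mouse below). The same mice were also apart for the summed heat shock genes, at 5441 to 5733 CPM in Pb and 3212 to 4484 in control astrocytes. The part of that in the Prdx1 difference was not tested. Prdx1 in cluster 1 was 418, 537, 432 and 472 CPM in Pb mice, against 83.4, 266 and 503 in control F1, F2 and M2 (0.62, SE 0.42, adjusted p = 0.832). Leaving out 1 mouse at a time moved it between 0.16 and 1.26. Control F1, at 10 cells, was lowest. The summed level of 5 blood genes (hemoglobin genes and Alas2) in cluster 1 ran from 0 to 122982 CPM in Pb mice and from 113 to 200789 in control mice. Its part in the Prdx1 difference was not tested.

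The glutathione peroxidases gave the other 3 values. Gpx1 in Oligodendrocyte-like cells was 100.1, 72.8, 74.1 and 79.8 CPM in Pb mice, against 64.3, 133, 106 and 99.99 in control mice (log2 fold change −0.35, SE 0.18, adjusted p = 1.00). Control F1 was the lowest of all 8, and control F2 and M1 lay above all 4 Pb mice. Without control F1 the log2 fold change was −0.49, and without control F2 it was −0.18. Summed heat shock genes in these cells ran from 13481 to 17932.5 CPM in Pb and from 10642 to 12207.5 in control mice, and their part was not tested. Gpx1 in Astrocyte-like cells was 247, 122 and 150.2 CPM in Pb F1, M1 and M2 and 144, 206 and 94.1 in control F1, F2 and M2 (0.41, SE 0.32, adjusted p = 0.921). Gpx4 in Endothelial-like cells was 803, 682, 773 and 783 against 788, 875, 915 and 752 CPM (−0.15, SE 0.11, adjusted p = 1.00), again overlapping. Without control M1 it was −0.088.

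In the sum of all kept cells all 10 members were tested and none was called (background 0%), with log2 fold changes of a median of −0.0024 against −0.021 for all 12640 genes. In such sums, fewer cells of a type and less RNA per cell cannot be told apart. Gstp1 was 550.4, 474, 542 and 521 CPM in Pb mice, against 488, 388, 476 and 325 in control mice (0.29, SE 0.15, adjusted p = 0.976). Oligodendrocyte-like cells made up 30.2, 22.1, 23.5 and 28.7% of the cells of Pb mice and 18.96, 20.8, 20.7 and 19.4% of those of control mice. Without them Gstp1 was 125, 137, 172 and 155 CPM against 149, 148, 200.1 and 93.1. Within Oligodendrocyte-like cells its log2 fold change was −0.042 with an SE of 0.13, and −0.16 to 0.090 with 1 mouse left out. All 4 Pb mice had a larger oligodendrocyte share than all 4 control mice, and the groups overlapped for Gstp1 both outside that class and within it. The part of the share in the all-cell difference was not tested.

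**Figure D5:**
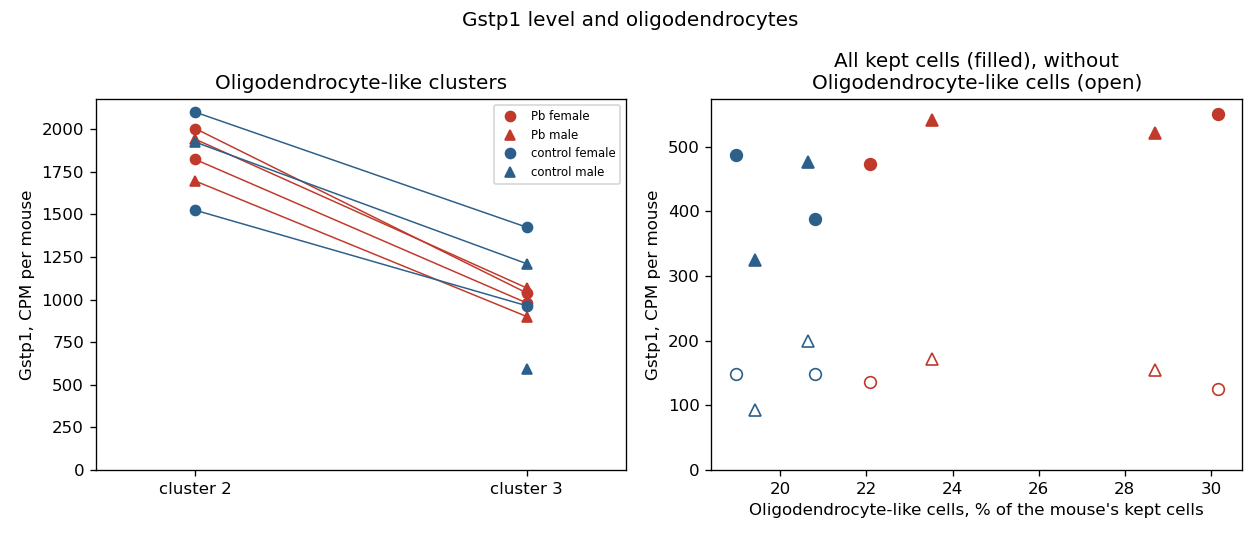
Left, Gstp1 CPM per mouse in oligodendrocyte clusters 2 and 3, with 1 line per mouse. Right, Gstp1 CPM of all kept cells (filled) and of all cells without Oligodendrocyte-like cells (open) against the percent of a mouse's cells that are Oligodendrocyte-like. Cluster 2 is higher in 7 of 7 mice, and the open points stay between 93.1 and 200.1 CPM.

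The all-cell value of Nqo1 turned with 1 library. Nqo1 was 6.82, 2.20, 2.35 and 4.57 CPM in Pb mice, against 1.72, 4.64, 1.93 and 17.3 in control mice (−0.66, SE 0.72). Without control M2, the mouse with 46 choroid cells, the log2 fold change was 0.56.

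The difference between Pb and control mice was also compared between the sexes, with 2 mice per sex and group. No member was called for this interaction (4 of 39362 gene tests were, 0.0102%), and 2 of 55 member tests had an unadjusted p under 0.05 (3.48% of all genes did). Both were Gclm. In Astrocyte-like cells Gclm was 61.8 CPM in Pb F1, 145 and 118 in Pb M1 and M2, 103 and 131 in control F1 and F2 and 67.2 in control M2 (1.91, SE 0.85, adjusted p = 0.998). Only 1 Pb female and 1 control male had enough of these cells. In Pericyte-like cells the sign was opposite, with 89.0 and 82.0 in the Pb females, 84.5 and 63.0 in the Pb males, 70.7 and 69.2 in the control females and 109.6 and 108 in the control males (−0.90, SE 0.41, adjusted p = 1.00). The Pericyte-like class mixes clusters 4 and 18, which differed in Gclm (87.2 and 23.4 CPM). Cluster 4 made up from 54.8% (Pb M1) to 80% (control M1) of it, and the part of this was not tested. The next smallest p was that of Prdx1 in cluster 1 (−1.40, SE 0.75, adjusted p = 0.850). Its estimate was −2.64 without control F2 and −0.70 without control F1.

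No member was called between males and females either (34 of 39362 gene tests were, 0.0864%), and 4 of 55 had an unadjusted p under 0.05 (4.93% of all genes did). Gpx1 gave the smallest p, in Astrocyte-like cells, where females held 247, 144 and 206 CPM and males 122, 150.2 and 94.1 (male minus female −0.93, SE 0.30, adjusted p = 0.371). Males overlapped females only through Pb M2. In Microglia-like cells Gpx1 was 599, 504, 628 and 651 CPM in females and 492, 477, 565 and 409.8 in males (−0.35, SE 0.14, adjusted p = 1.00). Cluster 5, the one highest in Gpx1, made up 44.6, 70.5, 60.8 and 61.2% of female and 52.5, 29.7, 39.0 and 23.8% of male microglia. Within cluster 5 Gpx1 was 665, 554, 729.8 and 748 CPM in females and 576, 616, 767 and 648 in males, and the sexes overlapped. The part of the cluster shares in the class difference was not tested. The Gpx1 estimate was below 0 in all 8 classes, from −0.93 to −0.074, but in 4 of them leaving out 1 mouse turned it, and the classes share their mice. Sod1 in Smooth muscle-like cells was 275, 336 and 297 CPM in females and 251, 203, 209 and 196 in males. Its estimate was −0.47 (SE 0.19, adjusted p = 0.468). The fourth was Gclm in Microglia-like cells (−0.57, SE 0.26).

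Other genes of the pathway gave no call in any class. Of NRF2 and its regulators, 10 genes gave 59 class tests, with an unadjusted p under 0.05 in 4 higher and 0 lower in Pb mice. The smallest was Maff, a small MAF partner, in Microglia-like cells (147 ± 48.4 CPM in Pb and 102 ± 33.2 in control mice, log2 fold change 0.58, SE 0.19, adjusted p = 1.00). Of 17 other NRF2 targets 16 were in the table, and they gave 66 tests with 3 higher and 1 lower. The smallest was Hmox1 in Oligodendrocyte-like cells (39.9 ± 2.81 and 23.6 ± 9.51 CPM, 0.75, SE 0.25, adjusted p = 1.00). Further glutathione enzymes and transporters gave 83 tests with 1 higher and 1 lower. Mgst1, a membrane glutathione transferase, had the smallest p there, in Astrocyte-like cells (94.4 ± 31.3 and 131 ± 108 CPM, −0.97, SE 0.39, adjusted p = 0.756). Without control M2 it was −0.20. Other peroxiredoxins, thioredoxins, superoxide dismutases and catalase gave 85 tests with 0 in either direction. The lowest p in that list, 0.0818, belonged to Msrb1, a methionine sulfoxide reductase, in Oligodendrocyte-like cells. Over all genes 4.40% of class tests had such a p in either direction. The remaining tests behind these counts, named after their values were seen, were Mafk in Microglia-like cells (0.38), Nfe2l2 in Pericyte-like (0.57) and Smooth muscle-like cells (0.58), Hmox1 in Microglia-like cells (0.49), Taldo1 in cluster 1 (1.06), Fth1 in Smooth muscle-like cells (−0.29) and Slc1a1 in Endothelial-like cells (0.26), all as log2 fold changes. With 1 mouse left out, Hmox1 in microglia was 0.18 (without Pb F1) and Mafk 0.23 (without Pb M1), and in smooth muscle Nfe2l2 was 0.37 and Fth1 −0.16 (both without control M1). Slc1a1 was −0.068 when the pathway genes were kept for clustering.

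By class, NRF2 and its repressors were compared in the 2 classes at opposite ends for Gpx1. Nfe2l2 was 264 ± 30.7 CPM in Microglia-like cells (n = 8) and 46.0 ± 6.90 in Oligodendrocyte-like cells. Bach1, a repressor on the same element, was 101 ± 18.8 and 21.4 ± 3.66 CPM there. Keap1, which marks NRF2 for degradation, was 36.5 ± 10.3 and 48.1 ± 8.98 in the same classes. Microglia-like cells were thus the higher class for Nfe2l2. In the class order they stood first for the members Txnrd1 and Gpx1 and last for Gclm, Nqo1, Prdx1 and Sod1, overlapping the neighbouring class each time. Among the 10 ordered units, Hmox1 was also highest in Microglia-like cells (494 ± 172 CPM, n = 8). Among the same units Slc7a11 was highest in Astrocyte-like cells (302 ± 79.3 CPM, n = 6), as Gclc was. Slc7a11 was also 1 of the 10 leading genes of the Fibroblast-like cluster, which lies outside these units.

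The genes whose level over 58 sums by class and mouse (8 classes) was most like each member were found among 7244 genes with a mean of at least 20 CPM, by Pearson's r of log2(CPM + 5). These sums share libraries and classes, so r describes where genes are high and has no p. Gpx1 was closest to Ctsh (0.94), Vasp (0.91) and Rap1b (0.91). Gstp1 was closest to Ywhaq (0.91), Agap1 (0.88) and Fkbp1a (0.87), and Gpx4 also to Ywhaq (0.85). Sod1 was closest to Aldh2 (0.88), Prdx1 to Pla2g16 (0.81), Gclm to Cystm1 (0.78), Gclc to Crot (0.73), Nqo1 to Lcat (0.72) and Txnrd1 to Itgb5 (0.70). For Srxn1 the highest r was 0.52 (Rptor). Few UMIs, such as the 6 of Srxn1 in all of cluster 1, limit how high r can go for Srxn1 and Nqo1. Among the members, Gpx4 and Gstp1 (0.81), Gpx4 and Prdx1 (0.71) and Prdx1 and Gstp1 (0.69) were most alike. Gpx1 ran against Gclm (−0.63) and Gstp1 (−0.60).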

How the data were processed

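UMI counts per gene and cell were deposited by the authors as 1 table of whole numbers. The submitters' processing notes name Cell Ranger, Seurat and mm10, and no source used here gives versions, annotation or strand. Each deposited cell had at least 1137 UMIs and 999 genes. Cells went to mice by their column names (0 left over). Cells over 20% mitochondrial UMIs (53) and called doublets (33 by Scrublet, or 0.628%, 30 still present) were removed. Clustering (scanpy 1.11.5, 2000 variable genes without the members, 30 components, Leiden resolution 1) gave 22 clusters, named by markers. Counts were summed per mouse and class (at least 10 cells, 3 mice per group) and fitted in edgeR 4.0.16 (R 4.3.3, TMM, filterByExpr, sex as covariate). DESeq2 1.42.0 and limma 3.58.1 were alternatives. Class sums held 48525 (Astrocyte-like) to 2538170 (Oligodendrocyte-like) UMIs per mouse, which limits precision. The scripts were tested on simulated data.

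The members, gene lists, naming rules and tests were chosen with earlier results of these data known. Named were all 10 members, the 8 class differences with the smallest p for Pb, 3 each for interaction and sex, 1 gene per other list, and the 3 most alike genes per member, printed for some. The labels do not say whether mice came from separate litters, so p-values measure only the spread between these mice. Of the oligodendrocyte gene list, 1 gene is not reported here, and the sums leave it out.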

Additional observations from a re-analysis of the deposited data

Results flagged for a closer look

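In groups of 4 mice, 1 value stood far from the other 3 (gap over range above Dixon's 95% critical value) in 12 of 96 groups of a member and unit. Chance gives about 1 in 20 for independent groups. These groups share their mice, and all cells include the classes, so the 12 cannot be weighed against that rate. Pb F2 accounted for 5 of the 12. It held 442 CPM of Prdx1 in all cells (others 576 to 582), 56.6 of Gclm in Microglia-like cells (others 32.3 to 33.6), 167 of Gclm in Oligodendrocyte-like cells (others 124 to 126), 8.20 of Txnrd1 in Pericyte-like cells (others 32.6 to 37.5) and 144 of Gstp1 in Smooth muscle-like cells (others 217 to 227). Pb M2 held 31.2 of Gclc in Endothelial-like cells (others 17.1 to 18.9) and 1337 of Gstp1 in Oligodendrocyte-like cells (others 1545 to 1556). Pb M1 held 20.3 of Srxn1 (others 13.3 to 14.1) and Pb F1 21.8 of Gclc (others 28.6 to 29.9) in Microglia-like cells. Among controls, M2 held 79.0 of Gclm in all cells (others 92.6 to 94.9), F1 held 510.3 of Prdx1 (others 423 to 433) and F2 held 20.2 of Txnrd1 (others 34.0 to 35.5) in Pericyte-like cells. Pb F2 gave 21 Pericyte-like and 14 Smooth muscle-like cells, so these values rest on few UMIs.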

How the results depend on the processing

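No member was called for Pb, for the interaction or for sex under any alternative run, and none of the Pb, interaction and sex differences printed for members with the smallest p turned direction. Other printed values near 0 or resting on 1 mouse did. Nqo1 in all cells was 0.56 without control M2, Gstp1 in Oligodendrocyte-like cells reached 0.090 (without control F1), Gpx4 there 0.00080 (without Pb F2), Gstp1 in all cells was −0.041 without Oligodendrocyte-like cells, and Slc1a1 in Endothelial-like cells turned when pathway genes were kept for clustering (−0.068). The members' median log2 fold change, Pb against control, moved beyond its spread in few settings. In Astrocyte-like cells it was 0.12 with the replicate block (title number in place of sex), 0.16 with at least 20 UMIs in each group mean, and −0.20 to 0.35 with 1 mouse left out. Leaving out 1 mouse gave 0.078 to 0.35 in Microglia-like and −0.13 to −0.00030 in Oligodendrocyte-like cells, and a mitochondrial limit of 10% gave −0.046 in Endothelial-like cells. The medians of Astrocyte-like, Endothelial-like and all cells took either sign over the alternatives run. Same-numbered mice did not deviate together (correlations −0.47, −0.13, 0.04 and −0.19, and 0 of 8 mice closest to their own number), so the numbers were not taken as pairs, and the block called 0 members.

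Of the levels recomputed, 20 moved by over 1 SD and 1040 did not. With cells regrouped at 10% mitochondrial UMIs or at a Leiden resolution of 0.5 (both chosen for levels after seeing the data), Pericyte-like levels were 25.4 and 23.4 CPM for Gclm, 55.8 and 56.7 for Txnrd1, 237 and 233 for Gpx1, 608 and 611 for Gpx4, 594 and 599 for Prdx1, 189.7 and 190.2 for Sod1, and 293 and 290.2 for Gstp1, close to the values of cluster 18. Resolution 0.5 also gave 64.8 for Gstp1 and 19.3 for Gclc in Choroid plexus-like and 16.5 for Srxn1 in Oligodendrocyte precursor-like cells. Choroid Gclc was 19.4 with doublets kept. Endothelial Srxn1 was 13.7 with the pathway genes kept for clustering and 13.3 at 10% mitochondrial UMIs. The cause was not tested.

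Over all genes, the Pb comparison called 0 genes in each unit, and up to 29 in all cells (DESeq2), 11 in Astrocyte-like (without Pb M1), 8 in Microglia-like (DESeq2) and 27 in cluster 1 (without control F1) under alternatives. Without a low-count filter it called 53 in Microglia-like, 40 in Endothelial-like, 25 in Oligodendrocyte-like and 40 in cluster 1. None was a member. Depth limits most for Nqo1 and Srxn1, which were filtered out of 8 and 7 of the 8 classes.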
